A study of Sus scrofa with 50 samples.

Results

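Loin and tenderloin of the same 5 ET-type Korean minipigs (Sus scrofa) were compared by RNA sequencing. The comparison took the 10 libraries that the labels name loin or tenderloin of ET type, of 50 libraries in the series, and paired them by the animal number: S0235, S0242, S0276, S0309 and S0326 each gave 1 loin and 1 tenderloin library. The series as a whole holds 5 tissues of 10 animals, 5 of ET type and 5 of L type. Both groups compared here therefore share the breed, the type and the animals, and differ in the labelled muscle. The sources used here do not spell out ET and L, and give no age, sex, feeding or body weight of the animals, no place within each muscle and no treatment. The labels name 1 animal per library, with no pooling. Values below are TPM, a length-normalised share of transcripts that sums to the same total in every library, added over all transcripts whose closest Swiss-Prot protein has the same name. Sets of 5 values always follow the order S0235, S0242, S0276, S0309 and S0326.

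As background, the loin is the long back muscle beside the spine and the tenderloin is the psoas major, a muscle under the lumbar spine that flexes the hip. A muscle fibre is called slow or fast after its myosin heavy chain. MYH7 is the myosin of slow fibres, and MYH2, MYH1 and MYH4 are those of fast fibres, from the most oxidative of these types to the most glycolytic. Slow fibres burn fatty acids and pyruvate in mitochondria, whereas the fastest fibres rely on glycogen and glycolysis. Muscles of the trunk and limbs also keep in adult life a record of body position, in the form of HOX and other homeobox or T-box genes.

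All 10 libraries had the transcripts of skeletal muscle. CKM, the muscle creatine kinase, was at 23010 to 28924 TPM in loin and 20418 to 34871 in tenderloin, and skeletal actin ACTA1 at 16427 to 23952 and 16242 to 26337. ADIPOQ, the adipocyte hormone adiponectin, reached at most 4.20 TPM. The labels were also set against the loin and tenderloin means of 4 L animals, over 3718 genes called between the muscles in those animals. The 5 tenderloin libraries correlated better with L tenderloin (r across genes 0.944 to 0.964) than with L loin (0.824 to 0.883), and 4 loin libraries better with L loin (0.922 to 0.948) than with L tenderloin (0.874 to 0.907). The library labelled loin of S0235 went the other way, with r of 0.915 with L loin and 0.938 with L tenderloin. Each library was also placed on the axis from the L tenderloin mean to the L loin mean, measured from its midpoint. The loin libraries lay at -0.129, 0.256, 0.149, 0.126 and -0.0082, and the tenderloin libraries at -0.587 to -0.329. By this measure the loin library of S0326 also lay on the tenderloin side, though barely. The loin library of S0235 lay above every tenderloin library for MYH4 and HOXD8, and at or below the level of the tenderloin libraries for HOXC6 and ZIC1, as given below. It was kept under its label, and many of the results that depend on it, but not all, are given with and without animal S0235.

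With limma, 3288 of 10854 genes tested were called at an adjusted p under 0.05 (30.3%). Of these, 1129 were higher in loin (10.4% of genes tested) and 2159 higher in tenderloin (19.9%). The median difference over all genes was -0.09 on the log2(TPM + 1) scale, loin minus tenderloin, which is the scale of every log2 difference below. After median-ratio scaling between libraries, which moves that median to 0.0082, 1748 genes were higher in loin and 1590 higher in tenderloin. The excess of calls on the tenderloin side thus depends on the scaling. Without animal S0235, 1569 were higher in loin and 2629 in tenderloin. All 5 animals differed in the called direction for 997 of the genes called higher in loin and 1833 of those called higher in tenderloin. In S0235 90.9% and 88.5% of the calls had the called sign, against 98.0% to 99.9% in the other 4 animals. These counts and percentages of agreement describe the animals that made the calls and are not a test. All 5 loin libraries lay above all 5 tenderloin libraries for 463 genes (4.27%), and all 5 tenderloin libraries above all loin libraries for 718 (6.62%). These are the shares to read the counts of gene groups against. In bulk tissue, fewer cells of a type and less RNA per cell cannot be told apart.

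**Figure D1:**
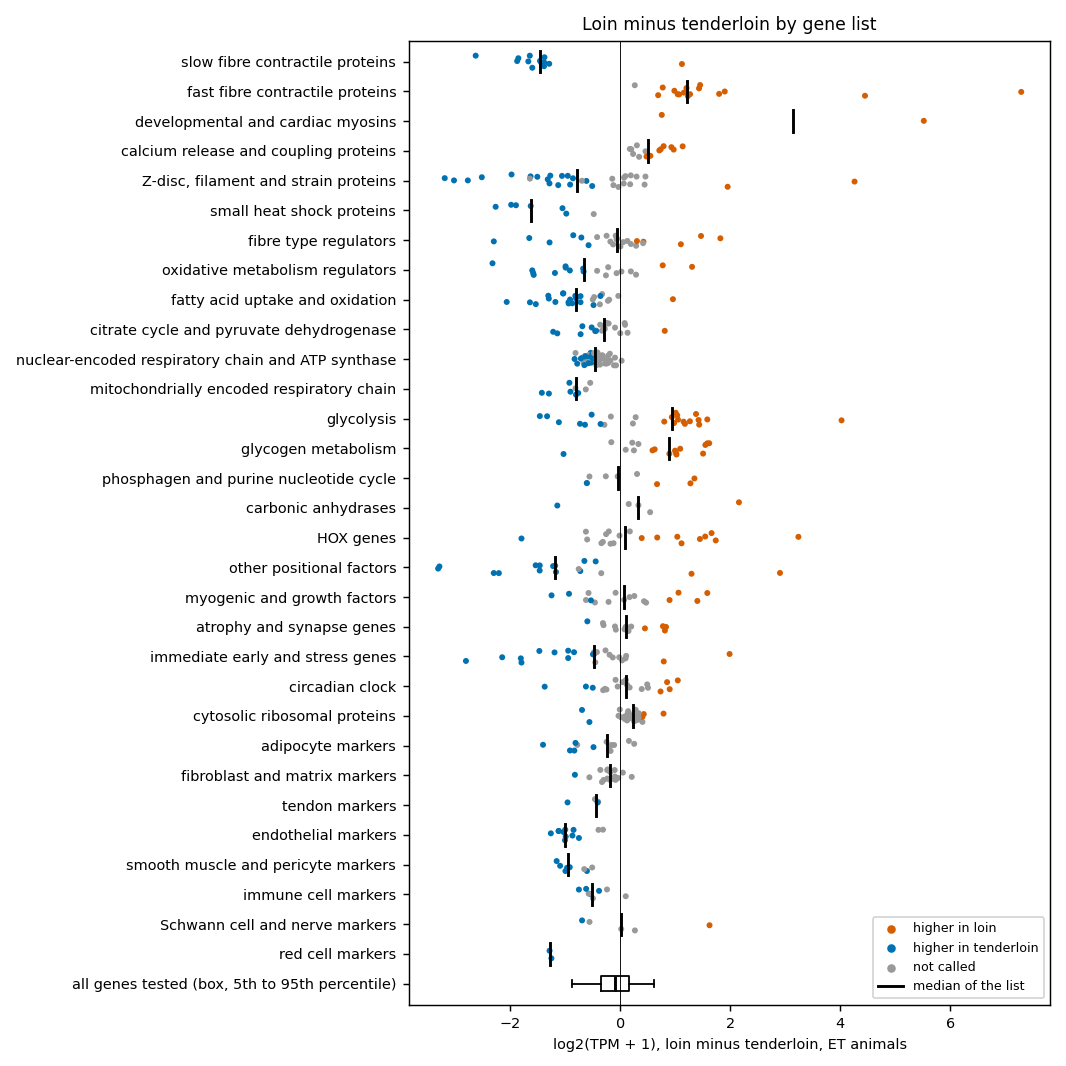
Difference between loin and tenderloin for the members of 31 gene lists, loin minus tenderloin on the log2(TPM + 1) scale on the x axis, 1 point per gene tested, coloured by the limma call; the black bar is the list median and the box at the bottom shows all 10854 genes tested. The slow fibre list lies left of 0 with 1 exception, the fast fibre list right of 0, and the box of all genes has its median at -0.09.

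The contractile proteins divided by fibre type. Of 13 slow fibre proteins tested, 12 were higher in tenderloin and 1 in loin (median -1.46). Of 16 fast fibre proteins, 15 were higher in loin and none in tenderloin (median 1.22). Their summed level was 9572 to 46977 TPM in loin and 49142 to 68571 in tenderloin for the slow list, and 94972 to 176490 TPM in loin and 48407 to 73550 in tenderloin for the fast list.

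MYH4, the fastest of the adult myosin heavy chains, had the largest difference of the genes named here. It was at 6385, 21690, 19503, 19945 and 15969 TPM in loin and 63.2, 103, 114, 101 and 116 TPM in tenderloin (log2 difference 7.29, SE 0.18, adjusted p = 1.57e-07). No library of either muscle came near the range of the other, and the lowest loin value, in S0235, was 54.9 times the highest tenderloin value. Without S0235 the log2 difference was 7.45 (adjusted p = 1.03e-07). MYH2, the oxidative fast myosin, was at 845, 2107, 2053, 2790.1 and 2243 TPM in loin and 367, 481, 681, 599 and 620.2 TPM in tenderloin (log2 difference 1.80, SE 0.17, adjusted p = 5.06e-04). MYH1, the intermediate fast myosin, was at 5180.2, 11566, 12578, 9911 and 9332 TPM in loin and 5759, 8082, 6198, 5474 and 3023 TPM in tenderloin (log2 difference 0.77, SE 0.25, adjusted p = 0.0455). The MYH1 groups overlapped, in S0235 loin was the lower, and the call was lost without S0242, S0276, S0309 or S0326 (adjusted p = 0.0820 to 0.169). MYH7, the slow myosin, was at 2111, 626, 2023, 859 and 939.6 TPM in loin and 4823, 5613, 2908, 3413 and 2624 TPM in tenderloin (log2 difference -1.67, SE 0.32, adjusted p = 0.00633), with every tenderloin library above every loin library. MYH7B, another slow-type myosin gene, was at 94.7, 13.7, 52.8, 47.4 and 42.4 TPM in loin and 300.0, 119.5, 471, 348 and 238 TPM in tenderloin (log2 difference -2.63, SE 0.20, adjusted p = 2.08e-04), again without overlap.

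As a percentage of the summed TPM of MYH7, MYH2, MYH1 and MYH4, MYH7 made up 14.5, 1.74, 5.595, 2.57 and 3.30% in loin and 43.8, 39.3, 29.4, 35.6 and 41.1% in tenderloin. It was lower in loin in 5 of 5 animals, with a mean difference of -32.3 percentage points (SD 5.93, n = 5) and p = 0.0625 in a two-sided exact permutation test, the smallest p that 5 pairs allow, and 0.125 after adjustment over 4 shares. MYH4 made up 54.8 ± 6.56% of the 4 myosins in loin and 1.06 ± 0.48% in tenderloin (SD, n = 5), while MYH1 took 33.0 ± 2.39% and 55.2 ± 5.70%, and MYH2 6.71 ± 1.28% and 5.91 ± 2.68%. Thus MYH1 was the most abundant of these myosins in tenderloin and MYH4 in loin, and the shares of MYH2 overlapped although its TPM did not. These genes have near-identical stretches of sequence, and transcripts of 1 gene can be counted to another, so each level is uncertain to that extent.

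**Figure D2:**
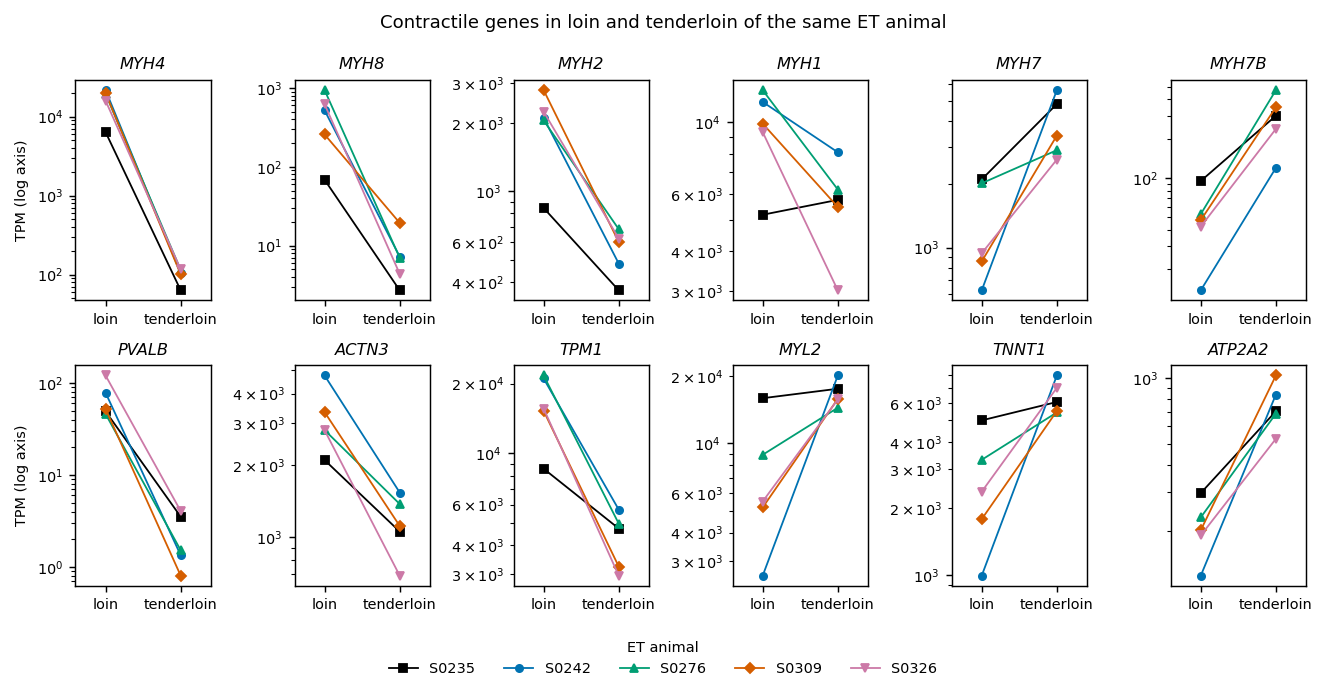
TPM of 12 contractile genes (log axes, a separate axis for each gene) in loin and tenderloin, with a line joining the 2 libraries of each ET animal. The lines of MYH4 fall from at least 6385 TPM in loin to 63.2 to 116 in tenderloin, whereas MYH7, MYH7B, MYL2, TNNT1 and ATP2A2 are higher in tenderloin, and the loin library of S0235 is the lowest of the 5 for MYH4, MYH2 and TPM1 and the highest for MYL2 and TNNT1.

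The 2 myosins of developing muscle that were tested were also called higher in loin. The limit on counting between myosin heavy chains holds for them too, and whether transcripts of MYH4 were counted to MYH8 was not tested. MYH8, the perinatal myosin, was at 68.5, 519, 937, 257 and 619.8 TPM in loin and 2.71, 7.24, 7.003, 19.4 and 4.38 TPM in tenderloin (log2 difference 5.52, SE 0.45, adjusted p = 2.51e-04), without overlap. MYH3, the embryonic myosin, was at 174 to 398 TPM in loin and 90.2 to 267 TPM in tenderloin (log2 difference 0.76, adjusted p = 0.0424), with overlap, and its call was lost without S0242, S0276, S0309 or S0326 (adjusted p = 0.0847 to 0.149).

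Among the other slow fibre proteins, MYL2, the slow regulatory light chain, was at 15897, 2572, 8895, 5180.3 and 5508 TPM in loin and 17519, 20070, 14420, 15797 and 15697 TPM in tenderloin (log2 difference -1.38, SE 0.36, adjusted p = 0.0203). For MYL2 the loin library of S0235 lay inside the tenderloin range, and the other 4 below it. The call for MYL2 was lost without S0242, S0309 or S0326 (adjusted p = 0.0520 to 0.0709). ATP2A2, the calcium pump of slow fibres, was at 297, 124, 229.9, 201 and 190.2 TPM in loin and 703, 838, 685, 1024 and 526 TPM in tenderloin (log2 difference -1.87, SE 0.22, adjusted p = 9.88e-04), without overlap. The slow troponin subunits TNNT1 (log2 difference -1.43), TNNI1 (-1.38) and TNNC1 (-1.37) differed by similar amounts. They lost the call without S0309 (adjusted p = 0.0516, 0.0655 and 0.0512), and TNNT1 and TNNI1 also without S0326 (0.0530 and 0.0519). The light chain MYL3 (-1.64), the tropomyosin TPM3 (-1.46), the Z-disc proteins ACTN2 (-1.60) and MYOZ2 (-1.85) and the calcium store protein CASQ2 (-1.29) were called as well. MYL6B, a light chain of slow fibres, was the exception: it was at 179, 96.7, 358, 149.8 and 171 TPM in loin and 58.4, 99.9, 61.2, 165 and 52.9 TPM in tenderloin (log2 difference 1.12, SE 0.36, adjusted p = 0.0439). Loin was higher in 3 of 5 animals, and the call was lost without S0235, S0276 or S0326 (adjusted p = 0.0799 to 0.137).

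Among the fast fibre proteins PVALB, the calcium buffer parvalbumin, had the largest difference after MYH4. It was at 49.2, 78.4, 46.1, 52.2 and 121 TPM in loin and 3.52, 1.34, 1.52, 0.805 and 4.05 TPM in tenderloin (log2 difference 4.45, SE 0.21, adjusted p = 1.49e-05). TPM1, the fast tropomyosin, was at 8579, 21044, 21682, 15251 and 15601 TPM in loin and 4729.7, 5706, 4964, 3237 and 2958 TPM in tenderloin (log2 difference 1.90, SE 0.24, adjusted p = 0.00135). ACTN3, the Z-disc actinin of fast fibres, was at 2107 to 4765 TPM in loin and 689.8 to 1539 TPM in tenderloin (log2 difference 1.45, adjusted p = 0.00131). For these 3 genes every loin library lay above every tenderloin library, which held for 12 of the 16 fast fibre proteins. The remaining called members were MYBPC2 (1.43), TNNC2 (1.27), MYL1 (1.23), TNNI2 (1.21), MYLPF (1.16), TNNT3 (1.07), CASQ1 (1.04), ATP2A1 (0.99) and MYLK2 (0.69). MYLK2 lost the call without S0242 or S0326 (adjusted p = 0.0515 to 0.0587). MYOZ1, the fast calsarcin, was at 6443 to 8533 TPM in loin and 4695 to 7636 TPM in tenderloin and was not called (log2 difference 0.27, adjusted p = 0.312).

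Of 14 proteins tested that couple the surface membrane to calcium release, 8 were higher in loin, none in tenderloin and 6 were not called (median 0.51). CACNB1, a subunit of the voltage-sensing calcium channel, was at 148, 169, 181, 116 and 113 TPM in loin and 75.1, 107, 90.5, 68.6 and 45.1 TPM in tenderloin (log2 difference 0.93, SE 0.12, adjusted p = 0.00152), without overlap. CAMK2A (1.14), ASPH (0.97) and triadin TRDN (0.79) followed. The release channel RYR1 was at 321 to 627 TPM in loin and 236 to 348 TPM in tenderloin (log2 difference 0.55, adjusted p = 0.0146). RYR1 lost the call without S0242, S0309 or S0326 (adjusted p = 0.0525 to 0.0654), and the junctional protein JPH1 (0.71) without S0276, S0309 or S0326 (adjusted p = 0.05001 to 0.0616). The list count was 10 without S0235, 6 without S0242, 5 without S0276 or S0309 and 4 without S0326. ITPR1, the inositol trisphosphate-gated calcium channel, which is not on this list, was at 13.0, 58.4, 106, 12.1 and 44.1 TPM in loin and 4.63, 4.08, 7.24, 2.99 and 6.84 TPM in tenderloin (log2 difference 2.56, SE 0.33, adjusted p = 0.00142), without overlap.

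Z-disc, filament and strain proteins were mostly higher in tenderloin, with 17 of 32 tested called there and 2 in loin (median -0.78). XIRP1, an actin-binding protein of fibre junctions, was at 78.8, 48.9, 29.9, 26.9 and 76.6 TPM in loin and 1743, 390.4, 495, 82.5 and 592 TPM in tenderloin (log2 difference -3.19, SE 0.35, adjusted p = 7.11e-04). CSRP3, the muscle LIM protein, was at 139.5, 21.0, 144, 128 and 261.4 TPM in loin and 3226, 244, 549, 597 and 856 TPM in tenderloin (log2 difference -2.77, SE 0.37, adjusted p = 0.00158). ANKRD1, a strain-induced ankyrin repeat protein, was at 15.4, 44.4, 26.1, 4.06 and 50.1 TPM in loin and 1392, 302, 215, 5.49 and 308 TPM in tenderloin (log2 difference -3.02, SE 0.65, adjusted p = 0.00996). Its lowest tenderloin value, in S0309, lay within the loin range, and the CSRP3 groups overlapped by 1 library. In all 3 genes the tenderloin library of S0235 was the highest of the 10 libraries. Without that animal the log2 differences were -2.87 (adjusted p = 4.31e-04), -2.33 (adjusted p = 4.44e-04) and -2.17 (adjusted p = 0.00291).

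ANKRD2 (-2.51, adjusted p = 0.00343), MYOM3, an M-band protein (-1.97, adjusted p = 9.89e-04), the filamin FLNC (-1.63, adjusted p = 0.00122) and LMOD2, which elongates thin filaments (-1.28, adjusted p = 0.00208), were also higher in tenderloin. ABRA, which links actin to serum response factor, was at 212, 70.0, 35.5, 37.8 and 56.6 TPM in loin and 2093, 418, 362, 537 and 520.3 TPM in tenderloin (log2 difference -3.23, SE 0.17, adjusted p = 2.43e-05), and ENAH, an actin assembly factor, at 4.53 to 12.4 and 19.1 to 230.2 TPM (log2 difference -3.09, adjusted p = 0.00147). The tenderloin library of S0235 was the highest for both, and without that animal the differences were -3.21 (adjusted p = 4.26e-05) and -2.61 (adjusted p = 4.18e-04). The 2 members higher in loin (5 without S0235, 1 without S0242) were IGFN1 and MYBPH, the latter named after its value was seen. IGFN1, an immunoglobulin-like Z-disc protein, was at 207, 1602, 1186, 1129.9 and 513 TPM in loin and 50.9, 80.3, 58.9, 26.3 and 11.9 TPM in tenderloin (log2 difference 4.26, SE 0.42, adjusted p = 5.24e-04). MYBPH, a myosin-binding protein, was at 224 to 778 TPM in loin and 26.6 to 193 TPM in tenderloin (log2 difference 1.95, adjusted p = 0.0145). Neither overlapped between the muscles, and MYBPH lost the call without S0242 (adjusted p = 0.0573).

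The small heat shock proteins, chaperones that bind filaments under load, were higher in tenderloin in 6 of 7 (median -1.63). CRYAB was at 1611, 313, 775, 647 and 1079.9 TPM in loin and 11117, 2699.8, 1833, 1639 and 2919.6 TPM in tenderloin (log2 difference -1.98, SE 0.29, adjusted p = 0.00220). HSPB7 was at 213, 23.7, 111, 82.7 and 104 TPM in loin and 1477, 339, 393, 229 and 289 TPM in tenderloin (log2 difference -2.26, SE 0.32, adjusted p = 0.00187). HSPB2 (-1.89), HSPB1 (-1.63), HSPB3 (-1.05) and HSPB6 (-0.98) were called, and HSPB8 was not (log2 difference -0.48, adjusted p = 0.115). The tenderloin library of S0235 again held the highest CRYAB, HSPB7, HSPB2, HSPB1, HSPB3 and HSPB8. Without S0235 CRYAB differed by -1.78 (adjusted p = 0.00226), HSPB7 by -2.13 (adjusted p = 0.00218) and HSPB8 by -0.27 (adjusted p = 0.238). Without S0242 HSPB6 differed by -0.63 (adjusted p = 0.0504), and it lost the call without S0242, S0309 or S0326 (adjusted p = 0.0504 to 0.0883).

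Transcription factors and signalling proteins that set fibre type were called in both directions, 5 of 24 higher in loin and 6 in tenderloin (median -0.06). MAF, a large Maf factor that drives the fastest myosin, was at 124, 210.2, 168, 171 and 143 TPM in loin and 44.7, 48.2, 71.2, 43.7 and 26.7 TPM in tenderloin (log2 difference 1.82, SE 0.17, adjusted p = 4.80e-04). Its relative MAFA was at 16.3, 26.8, 14.9, 15.8 and 9.598 TPM in loin and 6.13, 6.83, 6.90, 5.63 and 1.85 TPM in tenderloin (log2 difference 1.47, SE 0.15, adjusted p = 5.75e-04). NFATC3, a calcineurin-regulated factor, was higher in loin as well (1.103, adjusted p = 0.00158), and none of the 3 overlapped. SOX6, a repressor of slow fibre genes, was at 9.35 to 12.9 TPM in loin and 6.20 to 9.29 TPM in tenderloin (log2 difference 0.42, adjusted p = 0.0147). The difference of MEF2A was 0.30, adjusted p = 0.0475. SOX6 lost the call without S0309 or S0326 (adjusted p = 0.0580 to 0.0596), and MEF2A without S0235, S0242, S0276, S0309 or S0326 (adjusted p = 0.0573 to 0.163).

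On the tenderloin side, VGLL2, a cofactor of TEAD factors, was at 66.5, 49.1, 81.8, 63.2 and 70.6 TPM in loin and 249, 139, 129, 358 and 240.4 TPM in tenderloin (log2 difference -1.65, SE 0.22, adjusted p = 0.00161), without overlap. RCAN1, a calcineurin target and inhibitor, was at 43.1, 17.6, 15.3, 15.97 and 19.6 TPM in loin and 927, 48.0, 26.4, 152 and 68.8 TPM in tenderloin (log2 difference -2.30, SE 0.45, adjusted p = 0.00658). The tenderloin value of S0235 was the highest by far, and without that animal the difference was -1.77 (adjusted p = 0.00349). PROX1 (-1.28, adjusted p = 0.00540), which supports the slow programme, NFATC1 (-0.71, adjusted p = 0.00182), the histone deacetylase HDAC5 (-0.85, adjusted p = 0.00793) and MEF2C (-0.57, adjusted p = 0.00838) were called too. The other 13 regulators were not called. The count in loin was 3 without S0309 or S0326.

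Of 12 endothelial markers 10 were higher in tenderloin and none in loin (median -0.99), and their summed level was 95.7 to 149.8 TPM in loin and 181 to 297 in tenderloin, without overlap. KDR, the main receptor for vascular endothelial growth factor, was at 6.24, 4.12, 3.24, 3.84 and 4.25 TPM in loin and 9.37, 13.5, 8.58, 12.9 and 14.7 TPM in tenderloin (log2 difference -1.26, SE 0.16, adjusted p = 0.00146). PECAM1, a junction protein of endothelium, was at 37.2, 23.5, 18.0, 27.8 and 24.6 TPM in loin and 45.3, 58.2, 50.1, 47.8 and 67.0 TPM in tenderloin (log2 difference -1.03, SE 0.18, adjusted p = 0.00383). TEK (-1.12), CDH5 (-1.12), FLT1 (-0.99) and VWF (-0.75) were called as well. Of 8 smooth muscle and pericyte markers 6 were higher in tenderloin (median -0.94), among them the smooth muscle myosin MYH11 (-0.97, adjusted p = 0.00248) and SMTN (-0.92, adjusted p = 0.00380). The counts of vessel markers were the same after median-ratio scaling. The smooth muscle and pericyte count was 7 without S0235, 4 without S0242 or S0276 and 5 without S0326.

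Of 19 fibroblast and matrix markers 1 was called (2 without S0235), BGN (-0.82, adjusted p = 0.00135), and the tenderloin range of the summed level lay within the loin range (367 to 1604 TPM in loin and 871 to 1362 in tenderloin). Of 13 adipocyte markers tested 5 were higher in tenderloin (3 without S0326), led by GPAM (-1.40, adjusted p = 5.19e-04), an enzyme that muscle also has. LEP, PLIN1 and ADIPOQ stayed low in both muscles. PLIN1, the lipid droplet protein of fat cells, was at most 1.94 TPM in loin and 1.40 in tenderloin. Of 8 immune markers 4 were higher in tenderloin, 3 without S0309 and 1 without S0242, S0276 or S0326. The haemoglobins HBA (-1.25, adjusted p = 0.00816) and HBB (-1.28, adjusted p = 0.0371) were higher in tenderloin, and HBB lost the call without S0242, S0276, S0309 or S0326 (adjusted p = 0.0817 to 0.125). Immunoglobulin mu transcripts went the other way: IGHM was at 94.1, 86.6, 30.2, 20.3 and 134 TPM in loin and 39.8, 19.2, 3.31, 3.03 and 13.0 TPM in tenderloin (log2 difference 2.37, SE 0.25, adjusted p = 6.78e-04), with overlap, and higher in loin in 5 of 5 animals. The related entry IGM gave 2.34 and is no separate evidence, since immunoglobulin transcripts divide between near-identical entries. Among 5 nerve markers MBP was higher in loin (1.62, adjusted p = 1.97e-04) and PMP22 in tenderloin (-0.69, adjusted p = 0.00601), while SOX10 was under the limit for testing. The part of these cell types in the differences of other genes was not tested.

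Regulators of oxidative metabolism were higher in tenderloin in 10 of 19 and in loin in 2 (median -0.66). That count of 10 became 11 without S0235, 7 without S0242, S0276 or S0309, and 8 without S0326 or after median-ratio scaling. PPARGC1A, the coactivator of mitochondrial genes, was at 7.85, 6.81, 6.93, 7.39 and 7.18 TPM in loin and 77.2, 48.8, 15.2, 22.3 and 78.3 TPM in tenderloin (log2 difference -2.32, SE 0.32, adjusted p = 0.00169). The loin values were close together, whereas the tenderloin values spread from 15.2 to 78.3. VEGFA, the vascular growth factor, was at 157, 78.9, 106, 138 and 153 TPM in loin and 349.3, 433, 310.4, 289 and 534 TPM in tenderloin (log2 difference -1.60, SE 0.20, adjusted p = 0.00112), without overlap. PDK4, which turns off pyruvate dehydrogenase (-1.57, adjusted p = 0.00414), and the nuclear receptors PPARA (-1.58, adjusted p = 0.00491) and ESRRG (-0.99, adjusted p = 0.00537) were higher in tenderloin. PRKAA2, the catalytic subunit of AMP-activated kinase found in muscle, was higher in loin (0.77, adjusted p = 0.00601).

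Genes of fatty acid uptake and oxidation were higher in tenderloin in 18 of 26 and in loin in 1 (median -0.81). FABP3, the fatty acid-binding protein of muscle, was at 466, 39.8, 74.7, 104 and 56.2 TPM in loin and 867, 377.2, 342, 367 and 266 TPM in tenderloin (log2 difference -2.06, SE 0.27, adjusted p = 0.00146). The loin library of S0235 lay in the tenderloin range, and the other 4 below it. CPT1B, which moves fatty acids into mitochondria, was at 87.4, 37.0, 82.3, 105 and 49.8 TPM in loin and 153, 141, 188, 250.1 and 129.8 TPM in tenderloin (log2 difference -1.30, SE 0.15, adjusted p = 0.00101), and the fatty acid transporter CD36 at 206 to 341 and 453 to 533 TPM (-0.94, adjusted p = 0.00205), both without overlap. LPL (-1.64, adjusted p = 0.00178), ACADVL (-1.31, adjusted p = 0.00220) and ACSL1 (-1.18, adjusted p = 0.00248) followed. UCP3, an uncoupling protein named after its value was seen, was the member higher in loin, at 218 to 348 TPM against 93.3 to 292 in tenderloin (log2 difference 0.96, adjusted p = 0.0179), and lost the call without S0309 or S0326 (adjusted p = 0.0519 to 0.0579). The tenderloin count of the list was 22 without S0235, 9 without S0242, 12 without S0276, 10 without S0309 or S0326 and 13 after median-ratio scaling.

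Of 21 genes of the citrate cycle and pyruvate dehydrogenase 7 were higher in tenderloin and 1 in loin (median -0.30). The tenderloin count was 9 without S0235, 4 without S0242, 6 without S0276 and 3 without S0309 or S0326. MDH1, the cytosolic malate dehydrogenase of the list, was at 238 to 591 TPM in loin and 655 to 947 TPM in tenderloin (-1.22, adjusted p = 0.00471), and IDH3A differed by -1.14, adjusted p = 0.00513. PC, pyruvate carboxylase, was the member higher in loin (0.81, adjusted p = 0.00200). Of 52 nuclear-encoded subunits of the respiratory chain and ATP synthase 16 were higher in tenderloin and none in loin (median -0.46). Those with the smallest p were COX7A2 (-0.71, adjusted p = 0.0108), NDUFB5 (-0.58, adjusted p = 0.0110) and NDUFA4 (-0.83, adjusted p = 0.0163), and NDUFA4 lost the call without S0242, S0276, S0309 or S0326 (adjusted p = 0.0535 to 0.0630). This count was 42 without S0235, 2 without any one of the other animals and 4 after median-ratio scaling, so it depends on single animals and on the scaling.

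Of 9 mitochondrially encoded subunits 6 were higher in tenderloin (median -0.81), 8 without S0235, 3 without S0309, 0 without S0242, S0276 or S0326 and 2 after scaling. MT-ND1 was at 2485, 1071, 2062, 3383 and 2772 TPM in loin and 2391, 2919.7, 5012, 4726 and 7151 TPM in tenderloin (log2 difference -0.90, SE 0.24, adjusted p = 0.0221), with overlap. In S0235 loin was the higher, and the call was lost without S0242, S0276 or S0326 (adjusted p = 0.0671 to 0.0877). The other called members were MT-CO3 (-0.92), MT-CYB (-1.42), MT-ND3 (-1.29), MT-ND4 (-0.80) and MT-ND5 (-0.76). The MT-CYB entry spans 2 assembled transcripts, and its levels were 415 to 15323 TPM in loin and 3302 to 38886 in tenderloin. Its difference was -0.91 without S0276 and -3.11 with 1 transcript per entry. They lost the call in this way: MT-CO3 without S0242, S0276, S0309 or S0326 (adjusted p = 0.0688 to 0.113), MT-CYB without S0242, S0276, S0309 or S0326 (adjusted p = 0.0938 to 0.109), MT-ND3 without S0242, S0276 or S0326 (adjusted p = 0.0583 to 0.0697), MT-ND4 without S0242, S0276, S0309 or S0326 (adjusted p = 0.0757 to 0.123) and MT-ND5 without S0242, S0276, S0309 or S0326 (adjusted p = 0.105 to 0.151). The list took 12.7, 6.20, 8.15, 14.3 and 11.07% of all TPM in loin and 11.7, 15.4, 18.2, 22.1 and 25.5% in tenderloin. It was lower in loin in 4 of 5 animals, with a mean difference of -8.07 percentage points (SD 5.68, n = 5) and p = 0.125 in a two-sided exact permutation test and 0.167 after adjustment. A p of 0.05 cannot be reached with 5 pairs.

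Glycolysis genes were called in both directions, 14 of 25 higher in loin and 7 in tenderloin (median 0.94). PFKFB3, which makes the main activator of phosphofructokinase, was at 43.7, 207, 319, 119.9 and 179.9 TPM in loin and 10.1, 5.12, 32.9, 4.80 and 3.29 TPM in tenderloin (log2 difference 4.02, SE 0.43, adjusted p = 6.78e-04). LDHA, the lactate dehydrogenase subunit of fast muscle, was at 6594, 14718, 11517, 10080 and 10579 TPM in loin and 3190.4, 4288, 4204, 3475 and 2463 TPM in tenderloin (log2 difference 1.58, SE 0.19, adjusted p = 0.00112). GPI (1.38) and PKM (1.44), the enzymes of an early and the last step, differed by similar amounts, and in these 4 genes every loin library lay above every tenderloin library. The lactate transporters diverged: SLC16A3, which exports lactate from fast fibres, was higher in loin (1.05, adjusted p = 0.00101), and SLC16A1, which takes it up in oxidative fibres, was higher in tenderloin (-1.11, adjusted p = 0.00135).

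Glycogen genes were higher in loin in 11 of 17 and in tenderloin in 1 (median 0.89). PHKA1, the muscle alpha subunit of phosphorylase kinase, was at 264, 769, 589, 585 and 448 TPM in loin and 129, 166, 236, 197 and 112 TPM in tenderloin (log2 difference 1.62, SE 0.18, adjusted p = 7.51e-04). PGM1, which links glycogen to glycolysis, was at 1518, 2828, 2313, 1821 and 1526 TPM in loin and 682, 942, 734, 660.3 and 411 TPM in tenderloin (log2 difference 1.55, SE 0.15, adjusted p = 4.85e-04). Both were free of overlap. PHKG1, a catalytic subunit of phosphorylase kinase (1.02, adjusted p = 0.00227), and STBD1, a glycogen-binding protein (0.89, adjusted p = 0.00151), followed. GBE1, the branching enzyme, went the other way, at 5.54 to 11.9 TPM in loin and 12.3 to 18.9 TPM in tenderloin (-1.03, adjusted p = 0.00195). In the phosphagen and purine nucleotide list 3 of 9 were higher in loin, AK1 (1.350, adjusted p = 6.95e-04), AMPD1 (1.28, adjusted p = 0.00229) and ADSS1 (0.67, adjusted p = 0.0102), and CKB was higher in tenderloin (-0.60, adjusted p = 0.0164) but lost the call without S0242 or S0326 (adjusted p = 0.0568 to 0.0693).

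**Figure D3:**
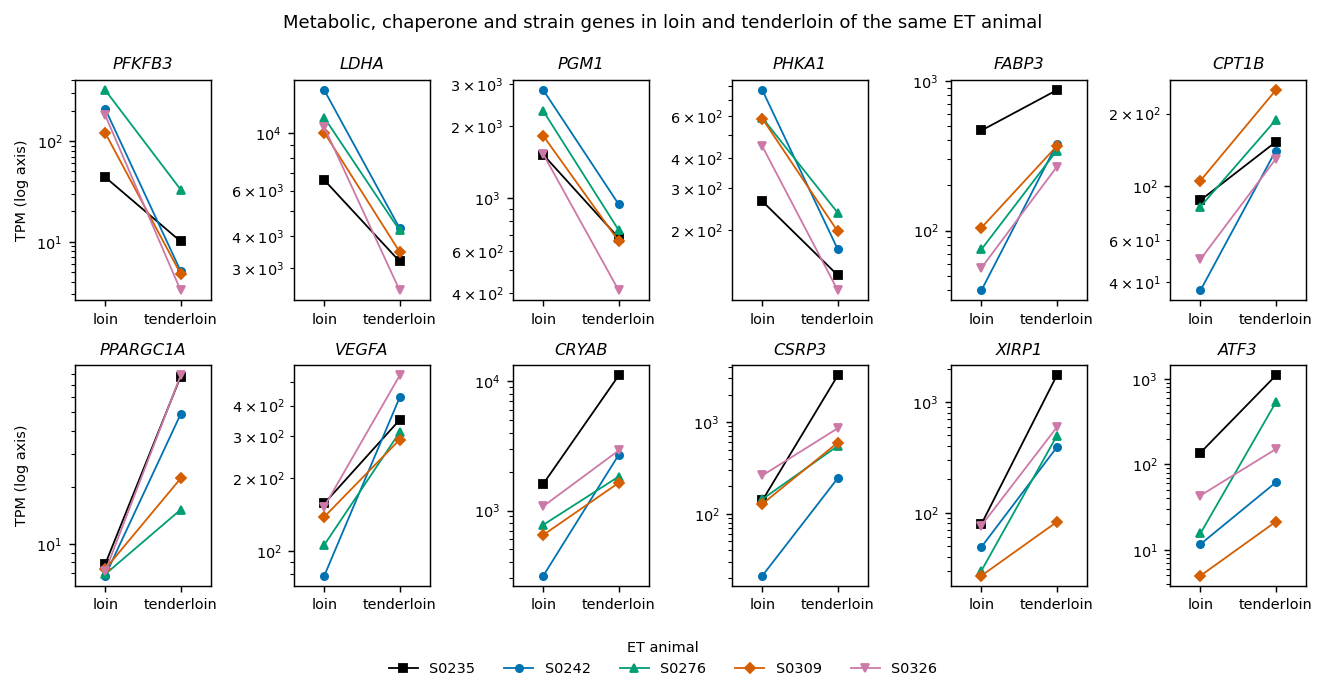
TPM of 12 metabolic, chaperone and strain genes (log axes, a separate axis for each gene) in loin and tenderloin, with a line joining the 2 libraries of each ET animal. PFKFB3, LDHA, PGM1 and PHKA1 are higher in all 5 loin libraries than in any tenderloin library, and the tenderloin library of S0235 is the highest for FABP3, CRYAB, CSRP3, XIRP1 and ATF3.

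HOX genes carry body position, and 9 of 20 tested were higher in loin and 1 in tenderloin (median 0.08). HOXC8 was at 0.490, 52.2, 43.6, 42.8 and 35.5 TPM in loin and 1.15, 1.48, 1.11, 2.02 and 1.21 TPM in tenderloin (log2 difference 3.24, SE 0.64, adjusted p = 0.00684). In 4 animals the loin value was at least 17.5 times the highest tenderloin value, and in S0235 the loin library had the lowest HOXC8 of all 10 libraries. HOXC6 was at 1.22, 10.8, 21.1, 11.9 and 13.3 TPM in loin and 1.84, 1.92, 1.94, 2.69 and 1.91 TPM in tenderloin (log2 difference 1.74, SE 0.38, adjusted p = 0.0107), and HOXC9 at 11.099, 24.7, 40.8, 24.7 and 22.8 and 9.54, 9.89, 12.3, 14.6 and 8.17 TPM (log2 difference 1.04, SE 0.20, adjusted p = 0.00595). For HOXC6 the loin library of S0235 lay below the tenderloin range, and for HOXC9 inside it. Without S0235 the log2 differences were 4.18 (adjusted p = 1.62e-06) for HOXC8, 2.26 (adjusted p = 1.60e-04) for HOXC6 and 1.25 (adjusted p = 6.50e-04) for HOXC9.

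Of 6 HOXD genes tested 5 were higher in loin, each in all 5 animals, S0235 included. HOXD8 was at 65.8, 90.1, 48.0, 61.0 and 64.0 TPM in loin and 23.2, 16.2, 25.0, 20.4 and 15.4 TPM in tenderloin (log2 difference 1.66, SE 0.19, adjusted p = 9.88e-04). HOXD10 was at 3.38, 3.36, 1.41, 0.952 and 0.902 TPM in loin and 0.0313, 0, 0.0359, 0.0164 and 0.0395 TPM in tenderloin (log2 difference 1.45, SE 0.21, adjusted p = 0.00209), and was low in both muscles. HOXD1 (1.55, adjusted p = 7.11e-04) and HOXD9 (1.12, adjusted p = 0.00187) were likewise free of overlap. HOXC10 (0.67, adjusted p = 0.00496) and HOXD4 (0.39, adjusted p = 0.0410) were called with overlap, and HOXD4 lost the call without S0235, S0242, S0276, S0309 or S0326 (adjusted p = 0.0561 to 0.118). HOXC11 was the member higher in tenderloin, at 6.88, 1.84, 0.359, 0.909 and 0.384 TPM in loin and 4.57, 8.76, 8.54, 9.55 and 6.36 TPM in tenderloin (log2 difference -1.79, SE 0.41, adjusted p = 0.0125). In S0235 it was higher in loin than in tenderloin. Without that animal the difference was -2.37 (adjusted p = 1.24e-04), and it lost the call without S0326 (adjusted p = 0.0505). None of the HOXA and HOXB genes tested was called. Without S0235 the counts over all HOX genes were 7 in loin and 3 in tenderloin.

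Other positional factors were higher in tenderloin in 13 of 17 and in loin in 2 (median -1.18). TBX1, a T-box factor of branchial arch and limb muscle, was at 7.16, 5.57, 3.03, 2.74 and 3.96 TPM in loin and 51.9, 56.1, 48.1, 64.7 and 38.3 TPM in tenderloin (log2 difference -3.31, SE 0.19, adjusted p = 4.65e-05). PITX1, a homeobox factor of the hindlimb field, was listed at 0 in 4 loin libraries and at 6.48 TPM in that of S0235, against 15.7, 15.04, 14.5, 18.8 and 6.999 TPM in tenderloin (log2 difference -3.28, SE 0.40, adjusted p = 0.00107). PRRX1, a homeobox factor of limb mesenchyme, was at 20.9, 6.85, 6.98, 7.06 and 11.8 TPM in loin and 68.9, 55.3, 38.1, 40.3 and 45.4 TPM in tenderloin (log2 difference -2.20, SE 0.17, adjusted p = 1.99e-04). None of the 3 overlapped between the muscles. IRX5 (-2.30), TBX3 (-1.54), SIM1 (-1.46), PITX3 (-1.46), TBX18 (-1.22) and MEOX1 (-1.17) were also called. LBX1 (-0.72), MEOX2 (-0.65) and TBX2 (-0.45) were called with smaller differences. LBX1 lost the call without S0242, S0276, S0309 or S0326 (adjusted p = 0.0985 to 0.145), MEOX2 without S0242 or S0326 (adjusted p = 0.0533 to 0.0581) and TBX2 without S0242, S0276 or S0326 (adjusted p = 0.0618 to 0.0744).

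ZIC1, a zinc finger factor of the dorsal somite, was at 0.0492, 10.4, 28.7, 8.32 and 11.4 TPM in loin and 0.121, 0, 0.0278, 0.507 and 0 TPM in tenderloin (log2 difference 2.90, SE 0.56, adjusted p = 0.00634). It was high in 4 loin libraries, and that of S0235 lay at the tenderloin level. Without S0235 the difference was 3.65 (adjusted p = 1.60e-04). EN1, an engrailed homeobox factor, was at 2.73, 2.44, 3.50, 3.35 and 3.46 TPM in loin and 0.508, 0.843, 0.677, 0.684 and 0.593 TPM in tenderloin (log2 difference 1.30, SE 0.13, adjusted p = 5.19e-04), low in both and without overlap. Over the 25 called genes of both positional lists, the loin library of S0235 lay within the range of the tenderloin libraries for 7, against 2 or 3 for each other loin library. The 7 leave out HOXC8 and HOXC6, for which it lay beyond the tenderloin range on the side away from the other loin libraries. Over all 3288 called genes the corresponding shares were 43.6% for S0235 and 11.4% to 25.8% for the other 4. These shares describe the libraries that made the calls and are not a test.

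**Figure D4:**
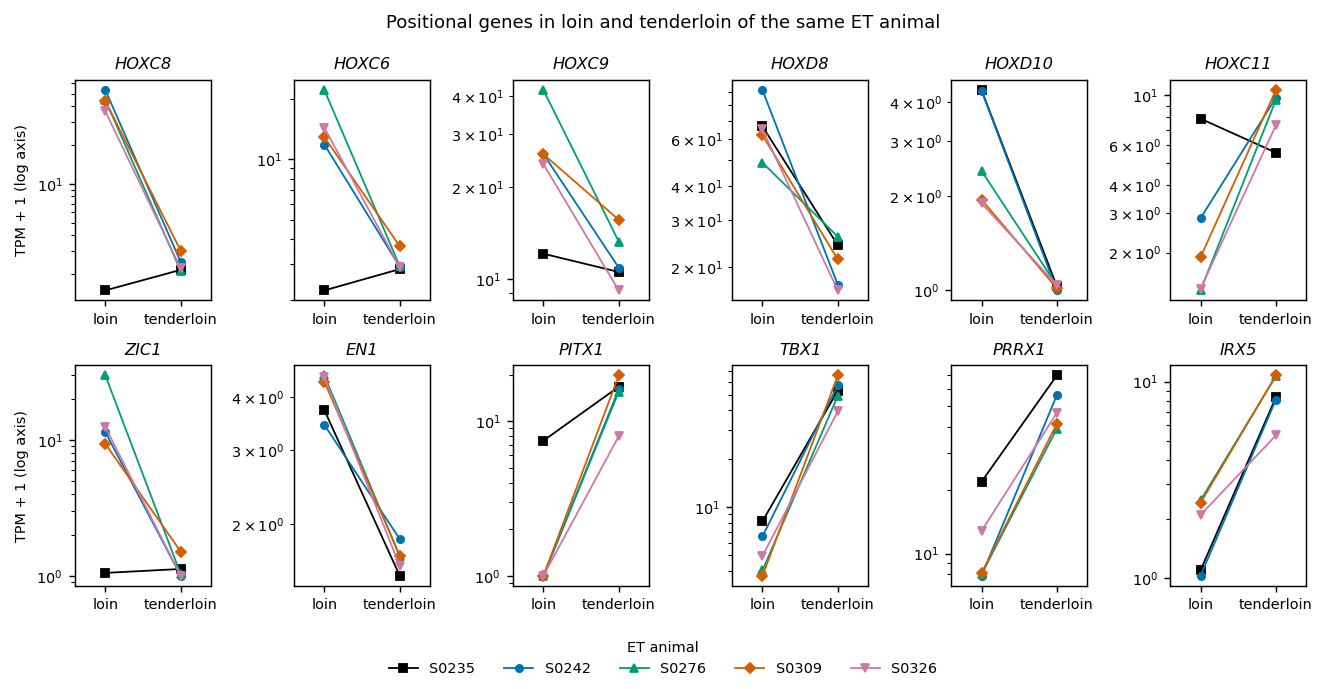
TPM + 1 of 12 positional genes (log axes, a separate axis for each gene) in loin and tenderloin, with a line joining the 2 libraries of each ET animal. The loin library of S0235 (black squares) sits at or below the tenderloin level for HOXC8, HOXC6 and ZIC1 and with the other loin libraries for HOXD8, HOXD10 and EN1, and its PITX1 of 6.48 TPM is above the 4 loin libraries listed at 0.

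Growth, stress and clock genes had calls in both directions. Of 17 myogenic and growth factors 4 were higher in loin (2 without S0326) and 3 in tenderloin. MSTN, the inhibitor of muscle growth myostatin, was at 7.87, 20.3, 14.1, 14.8 and 14.9 TPM in loin and 6.37, 1.97, 6.06, 7.11 and 1.37 TPM in tenderloin (log2 difference 1.58, SE 0.36, adjusted p = 0.0118), without overlap. IRS1, the adaptor of the insulin receptor, was higher in loin (1.40, adjusted p = 0.00232), and the receptor INSR itself higher in tenderloin at 6.83 to 20.8 TPM against 3.01 to 5.69 in loin (-1.25, adjusted p = 0.00236). IGFBP5 (1.06, adjusted p = 0.0135) and the myostatin antagonist FST (0.90, adjusted p = 0.0319) were higher in loin, and IGF2 in tenderloin (-0.93, adjusted p = 0.0129). IGFBP5 lost the call without S0276 or S0326 (adjusted p = 0.0503 to 0.0508) and FST without S0235, S0242, S0309 or S0326 (adjusted p = 0.0540 to 0.109). Of 14 atrophy and synapse genes 4 were higher in loin, ACHE (0.83, adjusted p = 0.00213), FOXO1 (0.78, adjusted p = 0.0149), FOXO3 (0.81, adjusted p = 0.0279) and RAPSN (0.45, adjusted p = 0.0360), and CHRNB1 was higher in tenderloin (-0.60, adjusted p = 0.00497). FOXO1 lost the call without S0309 (adjusted p = 0.0511), FOXO3 without S0242, S0309 or S0326 (adjusted p = 0.0918 to 0.102) and RAPSN without S0242, S0276 or S0326 (adjusted p = 0.0909 to 0.135). The count of atrophy and synapse genes higher in loin was 2 without S0242, S0309 or S0326.

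Immediate early and stress genes were higher in tenderloin in 11 of 23 and in loin in 2 (median -0.47). The tenderloin count was 7 without S0242, 8 without S0276 or S0309, 10 without S0326 and 11 without S0235. ATF3, a stress-induced factor, was at 137, 11.6, 15.5, 4.96 and 43.2 TPM in loin and 1102, 61.5, 534, 21.3 and 151 TPM in tenderloin (log2 difference -2.80, SE 0.41, adjusted p = 0.00204). Levels differed widely between animals, and S0235 was the highest in both muscles. MYC was at 8.99, 4.01, 3.42, 3.13 and 5.73 TPM in loin and 63.0, 16.1, 29.7, 11.4 and 23.8 TPM in tenderloin (log2 difference -2.14, SE 0.19, adjusted p = 3.30e-04), without overlap. MAFF (-1.81, adjusted p = 2.51e-04) and JUNB (-1.19, adjusted p = 0.00118) were also higher in tenderloin. DDIT4, an inhibitor of mTOR signalling, was at 102, 353, 299, 313 and 423 TPM in loin and 31.1, 74.1, 94.0, 90.2 and 69.7 TPM in tenderloin (log2 difference 1.99, SE 0.16, adjusted p = 2.15e-04), and the glucocorticoid target FKBP5 differed by 0.79, adjusted p = 0.00314. Of 19 clock genes 4 were higher in loin, CIART (1.05, adjusted p = 7.49e-04), HLF (0.85, adjusted p = 0.00298) and CRY2 (0.73, adjusted p = 0.0214) among them, and 3 in tenderloin, with NFIL3 leading (-1.37, adjusted p = 0.00744). CRY2 lost the call without S0242, S0309 or S0326 (adjusted p = 0.0598 to 0.0704). The clock counts were 2 in loin and 1 in tenderloin without S0309 or S0326, and 5 and 1 after median-ratio scaling. The time of sampling is not stated.

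Among the genes with the largest differences outside these lists, MICAL2, an enzyme that oxidises actin, was at 90.6, 271, 91.2, 124 and 45.0 TPM in loin and 7.76, 3.24, 0.249, 0.998 and 1.05 TPM in tenderloin (log2 difference 5.21, SE 0.38, adjusted p = 1.77e-04). SLC7A8 and SLC7A5, transporters of neutral amino acids, were higher in loin. SLC7A8 was at 20.4, 175, 64.6, 89.8 and 40.3 TPM in loin and 0.857, 7.84, 5.99, 4.06 and 1.73 TPM in tenderloin (log2 difference 3.83, SE 0.16, adjusted p = 7.73e-06), and SLC7A5 at 5.39 to 23.6 and 1.11 to 3.10 TPM (2.42, adjusted p = 2.06e-04). SHISA2 (3.60, adjusted p = 6.20e-04) and the water and glycerol channel AQP3 (2.78, adjusted p = 3.40e-04) were free of overlap as well. On the tenderloin side, OTUD1, a deubiquitinase, was at 119, 6.31, 3.93, 4.49 and 21.1 TPM in loin and 1553, 35.7, 128, 40.9 and 202 TPM in tenderloin (log2 difference -3.37, SE 0.28, adjusted p = 2.65e-04). Its groups overlapped, yet tenderloin was higher in 5 of 5 animals. MYLK4 (-2.73, adjusted p = 4.84e-06), a myosin light chain kinase, ABHD2 (-2.49, adjusted p = 1.77e-04), a lipase, GPA33 (-2.60, adjusted p = 5.75e-04) and TNFRSF12A (-2.52, adjusted p = 0.00114), the receptor of the cytokine TWEAK, complete the 15 largest differences on that side. Of 32 cytosolic ribosomal proteins 3 were higher in loin and 2 in tenderloin, and after median-ratio scaling 14 and 1. With 1 animal left out, the ribosomal loin count was 5 without S0235 or S0276 and 0 without S0242, S0309 or S0326, and the tenderloin count was 1 without S0242, S0276, S0309 or S0326. Of 4 tendon markers 2 were higher in tenderloin, but 0 without S0276, S0309 or S0326 and 0 after scaling.

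The same contrast was measured in 4 L animals, S0349, S0377, S0384 and S0385, which share no library with the ET animals. The library labelled loin of the remaining L animal, S0355, had 0.638 TPM of CKM against 17145 to 31866 in the other L loin libraries, and 1139 TPM of ADIPOQ against at most 0.021, and that animal was left out. In L, 2606 of 10610 genes were higher in loin (24.6%) and 1112 in tenderloin (10.5%). Of the 1129 genes higher in loin in ET, 1113 were tested in L and 851 were called the same way there, 76.5% of them and 32.9% of the L list, with 3 called the opposite way. Of the 2159 genes higher in tenderloin in ET, 2046 were tested and 740 were called the same way, 36.2% of them and 67.3% of the L list, with 35 opposite. The difference between the types was tested directly in 1 model, which called 1041 of 10788 genes (9.65%). With median-ratio scaling it called 256, without animal S0377 156, and with S0355 put back 0, with 2208 at an unadjusted p under 0.05. The counts therefore rest on leaving out that animal. The median difference over all genes was 0.20 in L against -0.09 in ET.

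CA3, the carbonic anhydrase of slow muscle, had the smallest p for a difference between the types. In ET it was at 1601, 1539.8, 2289.7, 1280.1 and 2598 TPM in loin and 587, 238, 422, 407 and 437 TPM in tenderloin (log2 difference 2.16, SE 0.21, adjusted p = 5.06e-04), without overlap. In L it was at 343, 1000.5, 413 and 386 TPM in loin and 984, 4170.4, 1959 and 1486 TPM in tenderloin, in the order of the animals above (log2 difference -1.94, adjusted p = 1.43e-04). The ET difference exceeded the L difference by 4.10 (SE 0.29, adjusted p = 2.61e-05). CA3 was thus higher in loin in 5 of 5 ET animals and higher in tenderloin in all 4 L animals. Of 5 carbonic anhydrases tested, CA3 was higher in loin in ET and CA4 in tenderloin. CA4, the membrane-bound form, was higher in tenderloin in both types (-1.14 in ET and -1.30 in L).

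MYL6B, the exception among the slow fibre proteins, was the other reversal among contractile genes. Its levels in L were 148, 196, 155 and 104 TPM in loin and 5984, 3108, 527 and 460.3 TPM in tenderloin (log2 difference -3.30, adjusted p = 0.00141), against 96.7 to 358 and 52.9 to 165 TPM in ET. The difference between the types was 4.43 (SE 0.71, adjusted p = 0.00728). The loin levels of the types overlapped, and the tenderloin levels did not. MYH2 differed between the muscles by 1.80 in ET and 0.42 in L (type difference 1.37, adjusted p = 0.0288), and MYH4 by 7.29 and 5.37 (type difference 1.92, adjusted p = 0.0122). IGFN1 went further in L, by 7.86 against 4.26 in ET (type difference -3.60, adjusted p = 0.0379). The type difference of MYH2 lost its call without ET animals S0276, S0309 or S0326 or L animals S0384 or S0385 (adjusted p = 0.0510 to 0.0655). That of IGFN1 lost it without any one of the 5 ET animals, without L animals S0377 or S0385 (adjusted p = 0.0554 to 0.0927) and after median-ratio scaling (adjusted p = 0.0989). The type differences of MYH4, MYL6B and CA3 kept their calls with each single animal left out and after scaling.

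Among regulators, SOX6 differed by 0.42 in ET and 1.92 in L (type difference -1.50, adjusted p = 0.00343), and NFATC1, a mediator of slow fibre signalling, by -0.71 and 0.66 (type difference -1.36, adjusted p = 0.00420). NFATC1 was called higher in tenderloin in ET and higher in loin in L. GREB1L did the same, with -0.75 and 1.51 (type difference -2.26, adjusted p = 8.34e-04). The other genes with the smallest p were MAP3K7CL, ANO6, PDZRN3, MRPS6, PYGO1 and DUSP26, with type differences from -2.83 (MAP3K7CL) to 2.01 (MRPS6). Of the positional genes, HOXD1 was called for a type difference (-1.50, adjusted p = 0.0219), and TBX1 (-1.17, adjusted p = 0.0689), PITX1 (0.13, adjusted p = 0.935) and HOXC8 (-1.349, adjusted p = 0.282) were not. HOXD1 lost the call without ET animal S0276 (adjusted p = 0.0511), without L animal S0377 (adjusted p = 0.0789) and after scaling (adjusted p = 0.0762). With S0355 put back the adjusted p was 0.0629 for CA3 and 0.102 for MYL6B.

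**Figure D5:**
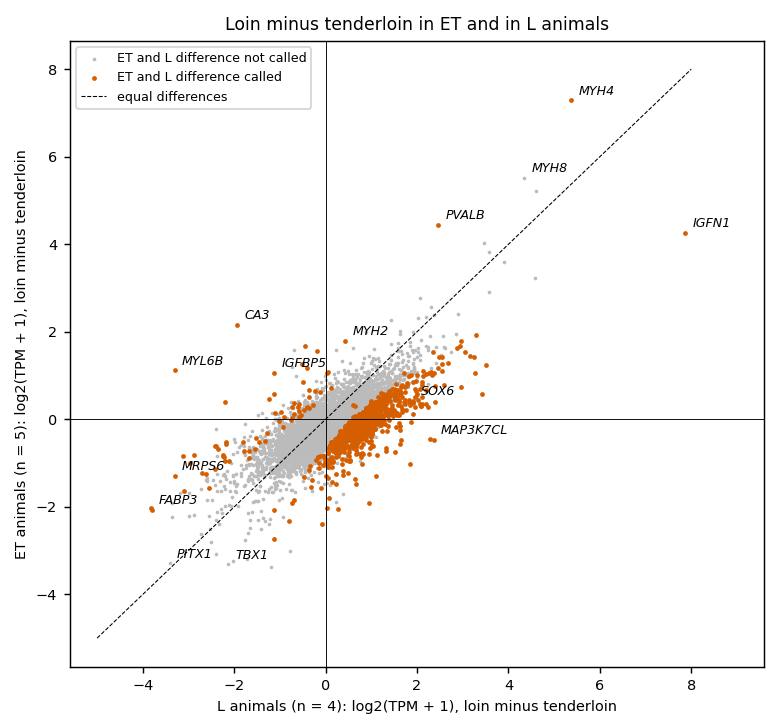
Loin minus tenderloin on the log2(TPM + 1) scale in 4 L animals (x axis) and 5 ET animals (y axis), 1 point per gene, orange where limma called the difference between the types. CA3 and MYL6B lie at the upper left, above 0 in ET and below 0 in L, while MYH4, MYH8 and PVALB lie at the upper right in both.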

How the data were processed

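RNA was sequenced from muscle and other tissues with a stranded mRNA kit, per the labels' protocols. Trimmomatic 0.36, Salmon 1.10.0 and the pig build Sscrofa11.1 are named in the submitters' processing notes, without the role of the build. The authors deposited a table of TPM for 57085 assembled transcripts with their closest Swiss-Prot protein by BLASTX and its E-value. TPM keeps no read depth, so the depth of each library is unknown and no counting error can be given.

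TPM was summed over transcripts whose Swiss-Prot entries share the protein mnemonic, whatever the species, at an E-value of at most 1e-10. This used 32168 transcripts in 14419 genes and 88.9% to 92.6% of the TPM of the 10 libraries, and left out 2444 repeat or retroviral hits. Hits are to proteins of any animal (median identity 92.9%), so near-identical genes such as myosin heavy chains, globins and immunoglobulins may be split or merged. Names came from a pig gene ID for 768 genes, a matching pig symbol for 5928 and a hand-written map for 278, and 7445 kept the mnemonic of the entry.

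Genes averaging at least 1 TPM were tested on log2(TPM + 1) with limma 3.58.1 in R 4.3.3, with animal as a block and an intensity trend. P-values were adjusted by Benjamini-Hochberg over all genes tested and called under 0.05. The numbers identify animals, so the libraries are paired. In a check, deviations from the tissue mean correlated at r of 0.35 to 0.63 within an animal and -0.27 to 0.05 between animals. The mean is over the same 5 animals, so positive values within animals by themselves pull those between animals below 0. Shares were compared by exact permutation over the 5 pairs. The ET and L difference was tested as an interaction in 1 model. The fits were also run on simulated libraries with known changes, with results not reported here. Genes varied independently in that simulation, unlike genes in tissue, so it checks the code only. Each animal gave 1 library per muscle, so the spread covers animals and library preparation together.

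Members and gene lists (31 lists, 552 of 617 genes matched, 504 tested) were chosen with earlier results of these data known, and no p was adjusted over a list alone. The text names the 15 largest called differences in each direction at a mean of at least 5 TPM, the members of the contractile, chaperone, positional, regulator and carbonic anhydrase lists, up to 6 members of each other list by smallest p, and the 10 smallest p for the ET and L difference. Alternatives were the block, pseudocounts of 0.1 and 5, no filter or one at 5 TPM, median-ratio scaling, 1 transcript per entry, an E-value of at most 1e-50, no trend, and leaving out each animal. A few list members are not reported here. No sequences are printed.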

Additional observations from a re-analysis of the deposited data

Results flagged for a closer look

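Over 187 named genes and the 4 shares, in both muscles, 382 groups of 5 libraries were looked at for a library far from the others. The gap to the nearest library was set against the range, on log2(TPM + 1) for genes and on the percentages or counts for the shares. In 27 groups the gap was above 0.71 of the range, the limit for 5 samples, and chance gives about 1 in 20 groups. Values are printed as TPM, on which the gap can be a smaller part of the range. Those after "against" are the range of the other 4 libraries. In S0235 loin was the highest of the 5 libraries for RCAN1 (43.1 TPM against 15.3 to 19.6), HDAC5 (42.6 TPM against 21.8 to 23.6) and PITX1 (6.48 TPM against 0). In the same animal loin was the lowest of the 5 libraries for MYH4 (6385 TPM against 15969 to 21690), MYH2 (845 TPM against 2053 to 2790.1), MYLK2 (408 TPM against 806 to 889), HOXC8 (0.490 TPM against 35.5 to 52.2), HOXC6 (1.22 TPM against 10.8 to 21.1), DDIT4 (102 TPM against 299 to 423) and HLF (10.4 TPM against 14.8 to 15.5). In S0235 tenderloin was the highest of the 5 libraries for ABRA (2093 TPM against 362 to 537), HSPB3 (57.5 TPM against 27.5 to 33.0), HSPB7 (1477 TPM against 229 to 393) and CIART (20.8 TPM against 5.07 to 7.72). Its tenderloin was the lowest of the 5 libraries for MYH4 (63.2 TPM against 101 to 116) and DDIT4 (31.1 TPM against 69.7 to 94.0). In S0242 loin was the highest of the 5 libraries for FOXO1 (37.8 TPM against 10.8 to 14.3). In S0242 loin was the lowest of the 5 libraries for MYOM3 (11.02 TPM against 27.6 to 37.3) and CSRP3 (21.0 TPM against 128 to 261.4). In S0242 tenderloin was the highest of the 5 libraries for TNNI1 (8063 TPM against 5442 to 5829). In S0276 loin was the highest of the 5 libraries for PDZRN3 (72.5 TPM against 35.2 to 41.0). In S0276 tenderloin was the highest of the 5 libraries for IRS1 (39.4 TPM against 9.51 to 14.04) and DUSP26 (417 TPM against 273 to 306). In S0309 tenderloin was the highest of the 5 libraries for HOXC6 (2.69 TPM against 1.84 to 1.94) and ZIC1 (0.507 TPM against 0 to 0.121). In S0326 tenderloin was the lowest of the 5 libraries for MAFA (1.85 TPM against 5.63 to 6.90) and PITX1 (6.999 TPM against 14.5 to 18.8).

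For 42 of the named genes limma called the difference between loin and tenderloin as unequal in ET and L. The values in parentheses are loin minus tenderloin in ET, then in L (log2), and their difference. A fitted sign need not be a call. Genes below with opposite signs that were not called in L include IGFBP5, LMOD2, HDAC5, MEF2C, INSR and CHRNB1 (limma adjusted p = 0.0680 to 0.983). The L calls of MAFF and JUNB, with small fitted differences in L, are not reported here. ANO6 and PYGO1 were not called in ET. The fitted difference was above 0 in ET and below 0 in L for MYL6B (1.12 and -3.30, difference 4.43), CA3 (2.16 and -1.94, difference 4.10) and IGFBP5 (1.06 and -1.12, difference 2.19). It was below 0 in ET and above 0 in L for LMOD2 (-1.28 and 0.01, difference -1.29), NFATC1 (-0.71 and 0.66, difference -1.36), HDAC5 (-0.85 and 0.12, difference -0.97), MEF2C (-0.57 and 0.57, difference -1.14), INSR (-1.25 and 0.23, difference -1.48), CHRNB1 (-0.60 and 0.10, difference -0.70), MAFF (-1.81 and 0.07, difference -1.88), JUNB (-1.19 and 0.38, difference -1.57), GREB1L (-0.75 and 1.51, difference -2.26), MAP3K7CL (-0.46 and 2.36, difference -2.83), ANO6 (-0.25 and 1.62, difference -1.87) and PYGO1 (-0.06 and 1.86, difference -1.93). It had the same sign and was larger in L for MYBPC2 (1.43 and 2.55, difference -1.11), ACTN3 (1.45 and 3.15, difference -1.70), ATP2A1 (0.99 and 2.13, difference -1.14), TRDN (0.79 and 1.68, difference -0.89), RYR1 (0.55 and 1.58, difference -1.04), IGFN1 (4.26 and 7.86, difference -3.60), SOX6 (0.42 and 1.92, difference -1.50), MEF2A (0.30 and 1.25, difference -0.95), FABP3 (-2.06 and -3.81, difference 1.75), LPL (-1.64 and -3.10, difference 1.46), PC (0.81 and 1.53, difference -0.72), PGM1 (1.55 and 2.35, difference -0.80), PHKA1 (1.62 and 2.87, difference -1.25), PHKG1 (1.02 and 1.88, difference -0.85), AMPD1 (1.28 and 2.68, difference -1.41), HOXD1 (1.55 and 3.05, difference -1.50), RAPSN (0.45 and 1.22, difference -0.77), FKBP5 (0.79 and 1.79, difference -0.998), CIART (1.05 and 2.38, difference -1.33), PDZRN3 (0.34 and 2.19, difference -1.85), MRPS6 (-1.29 and -3.30, difference 2.01) and DUSP26 (0.29 and 2.10, difference -1.80). It had the same sign and was larger in ET for MYH4 (7.29 and 5.37, difference 1.92), MYH2 (1.80 and 0.42, difference 1.37), PVALB (4.45 and 2.46, difference 1.98), MYLK4 (-2.73 and -1.14, difference -1.59) and HSPB3 (-1.05 and -0.07, difference -0.98). Animal S0355 of L was left out of this comparison, and with it put back 0 of the 42 remained called. After median-ratio scaling 17 of the 42 kept the call, and 9 did without the animal block. With 1 animal left out, 17 kept it without L animal S0377, 21 without ET animal S0276 and 25 to 37 without any other animal.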

How the results depend on the processing

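Of the 181 named genes called between loin and tenderloin, 145 kept the call with each animal left out and 134 under each of the other settings run. Of the calls over all genes, 5 changed sign with 1 transcript per entry and 4 at the stricter E-value, and 0 under the other settings. Without the animal block, which the pairing supplies, limma called 1587 genes (566 higher in loin, 1021 in tenderloin), 2247 in L and 77 for the ET and L difference, and 43 of the 187 named genes lost their call. Median-ratio scaling gave 1748 higher in loin and 256 for the ET and L difference, and a filter at 5 TPM, which tests fewer genes, gave 1296 higher in tenderloin. With 1 animal left out, the calls ranged from 1721 (without S0326) to 4198 (without S0235), with 525 to 1569 higher in loin and 1196 to 2629 in tenderloin. The L calls ranged from 2047 (without S0377) to 3884 (without S0349), and the ET and L difference from 156 to 1537 (without the same animals). With S0355 put back, 18 genes were called in L and 0 for the difference. The fitted difference then changed sign for MYBPC2 (0.91), ACTN3 (0.21), ATP2A1 (1.28), TRDN (0.71), RYR1 (0.78), LMOD2 (0.49), PGM1 (0.45), PHKA1 (0.094), AMPD1 (0.54) and DUSP26 (0.26). In ET, ANO6 changed sign at the stricter E-value (0.0038), and PYGO1 after scaling (0.044) and without S0235 (range with 1 animal left out -0.20 to 0.065); neither gene was called in ET. The percentage of TPM in the 10 most abundant genes differed by -1.69 to 0.39 points with 1 animal left out, above 0 without S0326. The cause of these changes was not tested. The deposited TPM keep no depth, so the precision of low values such as those of HOX genes is unknown.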
